A study of Homo sapiens with 4 samples.

Results

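ERRα, the oestrogen-related receptor encoded by ESRRA, binds DNA both at gene starts and between genes, and the summits described here are those between genes but not far from them. They come from ChIP-seq, in which DNA fixed to a protein is recovered with an antibody and sequenced, of MDA-MB-231, a widely used invasive breast cancer cell line without oestrogen receptor α. The authors' list of peaks matched between both ChIP replicates held 10026 peaks on chromosomes 1 to 22 and X. Of these, 1640 (16.4%) had a summit over 1 kb from every RefSeq gene of any kind and at most 50 kb from the nearest end of a protein-coding gene. Among the matched peaks they were chosen by summit position, and no measure of peak strength or replicate agreement entered the rule. Earlier results of these data were known when they were chosen. They are called intergenic summits below. The remaining matched peaks comprised 1529 at protein-coding gene ends (at most 1 kb away) and 4608 within the body of a protein-coding gene. Another 1264 lay at non-coding genes only, and 985 over 50 kb from any protein-coding gene end. These 985 also lay over 1 kb from every RefSeq gene, and they are meant where summits over 50 kb away are named.

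The libraries comprised 2 ERRα ChIP replicates from 2 cell culture samples, made with 5 µg of an ERRα antibody, and 2 input libraries of sonicated chromatin without antibody, all from cells fixed with 1% formaldehyde and with no treatment named in the labels. Each replicate was called against both inputs, so the replicates share their background, and a single cell line without an ERRα-depleted control was used. The labels state the reads per library without an exponent sign, taken here as 29000000 for ERRα and 10000000 for input. A peak's fold enrichment (fold) is the value the authors deposited, ChIP signal divided by local input signal at the summit. No reads per peak were used, so depth enters no interval, and the error given is the spread between the replicates.

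Nuclear receptors of the ERR family need no hormone to be active and bind DNA at an extended half-site, the ERR response element, in cooperation with coactivators such as PGC-1α. Besides gene starts, transcription factors of this kind occupy enhancers, which lie at varying distances from the genes they act on. The nearest gene is therefore a landmark for a summit and not an established target.

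Sequence for the intergenic summits themselves was not used here, except where the interval of such a peak reached a RefSeq promoter window (GRCh38.p14, 250 bases before to 50 after a start). This happened at 4 of the 1640. The promoter of KLF6, a zinc finger transcription factor (chromosome 10, 3785160 to 3785459, minus strand), is shown because the peak that reaches it was the strongest of the 4. Capitals mark the 75 bases inside the peak interval, at the upstream edge of the promoter. The peak spanned 3785385 to 3787052, its summit lay 1563 bp upstream of the gene, and its fold was 12.2 in replicate 1 and 10.5 in replicate 2.

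KLF6: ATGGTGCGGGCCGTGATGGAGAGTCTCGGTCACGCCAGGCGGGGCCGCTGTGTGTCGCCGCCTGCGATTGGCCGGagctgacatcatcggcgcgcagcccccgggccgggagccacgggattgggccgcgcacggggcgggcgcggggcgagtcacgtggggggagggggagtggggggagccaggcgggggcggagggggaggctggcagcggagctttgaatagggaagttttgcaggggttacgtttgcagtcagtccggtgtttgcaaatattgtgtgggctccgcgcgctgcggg

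The window had a GC content of 70.7%, and neither TCAAGGTCA, the ERR response element, nor its core AAGGTCA was found in it on either strand. The peaks that reached the windows of C16orf74, HERC1 and the antisense RNA gene TPRG1-AS1 covered 78, 15 and 64 bases, and none of these windows held either word.

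Some of the genes nearest to an intergenic summit also had a matched summit in their own promoter window, and there the element could be read. Among 1533 promoter windows of the nearest genes (of 1062 genes with an entry), 29 held a matched summit, and 2 of these 29 (6.90%) contained TCAAGGTCA on either strand. Over all 34961 promoters, 32 of 484 with a matched summit (6.61%) and 92 of 34477 without one (0.267%) contained it. The core AAGGTCA, which is part of the longer word, stood in 5 of the 29 (17.2%), in 25.8% of all promoters with a summit and in 3.61% of those without. The 4 shown here are both promoters with the full element, with TCAAGGTCA or its reverse complement in capitals, and a pair with the core in capitals, chosen after their values had been seen for genes with a known function in mitochondria or oxygen handling.

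CCDC8: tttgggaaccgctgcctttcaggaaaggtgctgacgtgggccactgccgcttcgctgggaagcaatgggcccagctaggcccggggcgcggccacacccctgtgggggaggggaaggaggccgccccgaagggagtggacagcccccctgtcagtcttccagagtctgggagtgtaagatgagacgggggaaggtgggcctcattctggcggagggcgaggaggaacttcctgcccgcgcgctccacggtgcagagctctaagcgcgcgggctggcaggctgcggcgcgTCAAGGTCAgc
SLC41A3: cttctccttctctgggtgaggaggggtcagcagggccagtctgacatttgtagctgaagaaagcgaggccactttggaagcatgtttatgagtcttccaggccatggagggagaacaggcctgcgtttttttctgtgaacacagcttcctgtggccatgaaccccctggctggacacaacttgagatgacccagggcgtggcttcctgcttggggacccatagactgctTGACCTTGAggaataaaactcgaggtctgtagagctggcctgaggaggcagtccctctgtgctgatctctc
MICOS10: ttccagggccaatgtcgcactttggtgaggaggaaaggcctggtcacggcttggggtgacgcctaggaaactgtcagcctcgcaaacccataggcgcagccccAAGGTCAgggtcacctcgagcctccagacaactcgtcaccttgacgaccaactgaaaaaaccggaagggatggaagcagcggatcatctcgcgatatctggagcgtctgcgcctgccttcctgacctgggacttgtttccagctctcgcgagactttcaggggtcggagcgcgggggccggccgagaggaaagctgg
MB: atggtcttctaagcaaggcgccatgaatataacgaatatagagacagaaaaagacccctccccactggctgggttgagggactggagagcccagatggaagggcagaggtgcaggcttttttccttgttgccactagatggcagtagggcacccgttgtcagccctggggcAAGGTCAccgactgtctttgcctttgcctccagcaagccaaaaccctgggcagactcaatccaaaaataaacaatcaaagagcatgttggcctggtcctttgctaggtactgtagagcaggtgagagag

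CCDC8 encodes a component of the 3M complex, which acts in growth control. Its window (chromosome 19, 46413515 to 46413814, minus strand) held a summit with folds of 13.0 and 13.5 in replicates 1 and 2, and the middle of the element lay 1 bp from it. The intergenic summit of CCDC8 was 1.08 kb upstream and reached 41.7 and 34.7, higher than the promoter summit in each replicate. SLC41A3, a magnesium transporter gene (chromosome 3, 126057076 to 126057375, minus strand), had the element 17 bp from a promoter summit of 19.03 and 18.5. Its intergenic summit lay 3.76 kb downstream of the gene, across the gene from this promoter. It was lower in both replicates, at 5.33 and 7.15, and did not pass the IDR threshold given below. MICOS10 encodes a core subunit of the complex that shapes mitochondrial cristae. Its window (chromosome 1, 19596729 to 19597028, plus strand) had the core 23 bp from a promoter summit of 42.7 and 28.8, whereas its intergenic summit, at 14.6 kb, reached 11.4 and 6.85. MB encodes myoglobin, the oxygen-binding protein of muscle. In its window (chromosome 22, 35623305 to 35623604, minus strand) the core lay 4 bp from a promoter summit of 20.5 and 14.99. The intergenic summit, 14.8 kb downstream of the gene and so across it from this promoter, reached 7.60 and 7.52.

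The fold enrichments of the intergenic summits were close to those of all matched peaks. Their folds had a median of 8.65 in replicate 1 and 8.17 in replicate 2, and those of all matched peaks one of 8.65 and 8.41, and the median of the mean folds was 8.40 against 8.44. The irreproducible discovery rate (IDR) measures how well a peak's rank agrees between replicates, and a deposited score of at least 540 corresponds to an IDR of 0.05. It was passed by 817 of the 1640 intergenic summits (49.8%, exact 95% interval 47.4 to 52.3), against 50.4% of all matched peaks. At an IDR of 0.01, a score of at least 830, 628 passed (38.3%), against 38.7%. Both shares are at the background. Summits within 1 kb of a gene end passed in 50.2% of cases and had medians of 8.56 and 8.46, and those over 50 kb away passed in 49.8% and had medians of 8.51 and 8.06. In replicate 2 the medians of the 5 position classes ran from 8.06 to 8.46 and in replicate 1 from 8.51 to 8.72, so the classes differed by about as much as the replicates of a class. No test was run between the classes.

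**Figure D1:**
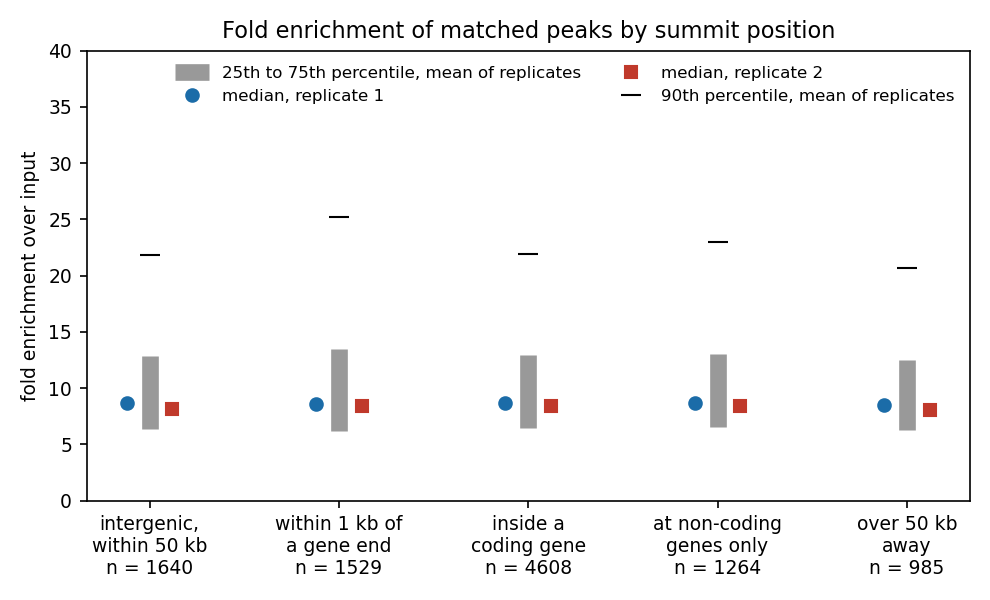
Fold enrichment over input (linear axis) of matched peaks in 5 classes by summit position. Dots and squares are the medians of replicates 1 and 2, grey bars the 25th to 75th percentile and dashes the 90th percentile of the mean of both replicates. The medians lie between 8.06 and 8.72 in all classes, and the 90th percentile is 21.8 for intergenic summits and 25.3 at gene ends.

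The upper tail of the intergenic summits resembled that of all peaks. A mean fold above 20 was reached by 192 (11.7%), against 14.5% of the summits at gene ends and 12.2% of all matched peaks. A mean fold above 50 was reached by 37 (2.26%), against 2.94% at gene ends and 2.32% of all. Intergenic summits made up 19 of the 100 strongest and 76 of the 500 strongest matched peaks (15.2%). When all matched peaks were ordered by mean fold in 10 equal groups, the share of intergenic summits lay between 15.2% and 17.8% in every group. Peaks at intergenic summits had a median width of 636.5 bp, against 720 bp at gene ends and 598 bp beyond 50 kb. A width over 1500 bp was found for 51 of them (3.11%), against 5.69% at gene ends.

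Most intergenic summits lay within 100 bp of each other in the replicates. The summits of replicates 1 and 2 were a median of 36 bp apart, and 1373 of 1640 (83.7%) were this close, against 76.4% of summits at gene ends and 83.3% of all matched peaks. Across the 1640 summits, which share libraries and inputs and are not independent, Spearman's rank correlation of the folds was 0.852, against 0.858 over all matched peaks. Replicate 1 had the higher fold at 920 of the 1640 (56.1%), against 54.4% of all matched peaks. The 817 summits that passed an IDR of 0.05 had median folds of 13.0 in replicate 1 and 12.7 in replicate 2, and their replicate summits were a median of 26 bp apart. The 823 that did not pass had medians of 6.29 and 6.31 and a median distance of 54 bp. The replicates differed by more than 1.5 times in fold at 26 of the 817 (3.18%) and at 131 of the 823 (15.9%). IDR itself selects for this agreement.

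**Figure D2:**
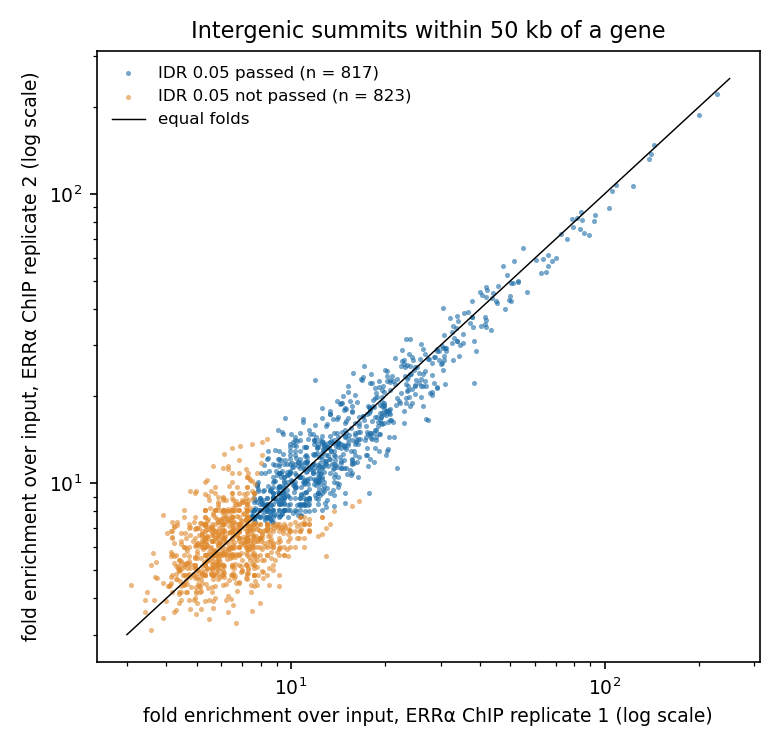
Fold enrichment over input of the 1640 intergenic summits in ERRα ChIP replicate 1 (x axis) and replicate 2 (y axis), both on log scales, with 1 point a summit. Points that passed an IDR of 0.05 (n = 817) lie along the line of equal folds, and the 823 that did not pass scatter more widely at low folds.

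Before matching, 2262 of the 14032 peaks in the list of replicate 1 met the same rule on position (16.1%), as did 2076 of 12603 in replicate 2 (16.5%). A peak in the other replicate overlapped 72.6% of these in replicate 1, against 71.8% of all its peaks, and 79.1% in replicate 2, against 79.9% of all. Peaks found in a single replicate were weak. In replicate 1 their median fold was 5.36, against 8.59 for the overlapping ones, and the highest was 11.8. In replicate 2 the values were 5.35 against 8.13, with a highest of 10.5.

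Intergenic summits were more frequent near genes than far from them, per Mb of intergenic sequence, while the median folds at all distances were of similar size. The median distance to the nearest protein-coding gene end was 12.2 kb, with quartiles of 4.74 and 25.8 kb. Intergenic sequence open to the rule amounted to 419 Mb, sampled every 10 bp between the outermost genes of each chromosome. In it there were 3.92 intergenic summits per Mb, against 1.12 per Mb of the 877 Mb beyond 50 kb. From 1 to 2 kb from a gene end there were 6.73 summits per Mb, from 2 to 5 kb 5.29, from 5 to 10 kb 3.80 and from 10 to 20 kb 3.77. From 20 to 30 kb there were 3.19, from 30 to 40 kb 3.57 and from 40 to 50 kb 3.03. Summits that passed an IDR of 0.05 followed the same course, with 3.27 per Mb at 1 to 2 kb and 1.41 at 40 to 50 kb. Assembly gaps and unmappable stretches were not removed from these lengths, and base composition near genes was not matched. Their part in the difference was not tested.

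The median fold at 1 to 2 kb was 8.89 in replicate 1 and 8.24 in replicate 2 (144 summits), and at 40 to 50 kb it was 8.37 and 8.02 (136 summits). The share that passed an IDR of 0.05 was 48.6% (exact 95% interval 40.2 to 57.1) in the first of these ranges and 46.3% (37.7 to 55.1) in the last. The intervals cover counting error only. From 10 to 20 kb the medians were 9.13 and 8.46, and 199 of 379 passed (52.5%, 47.3 to 57.6).

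**Figure D3:**
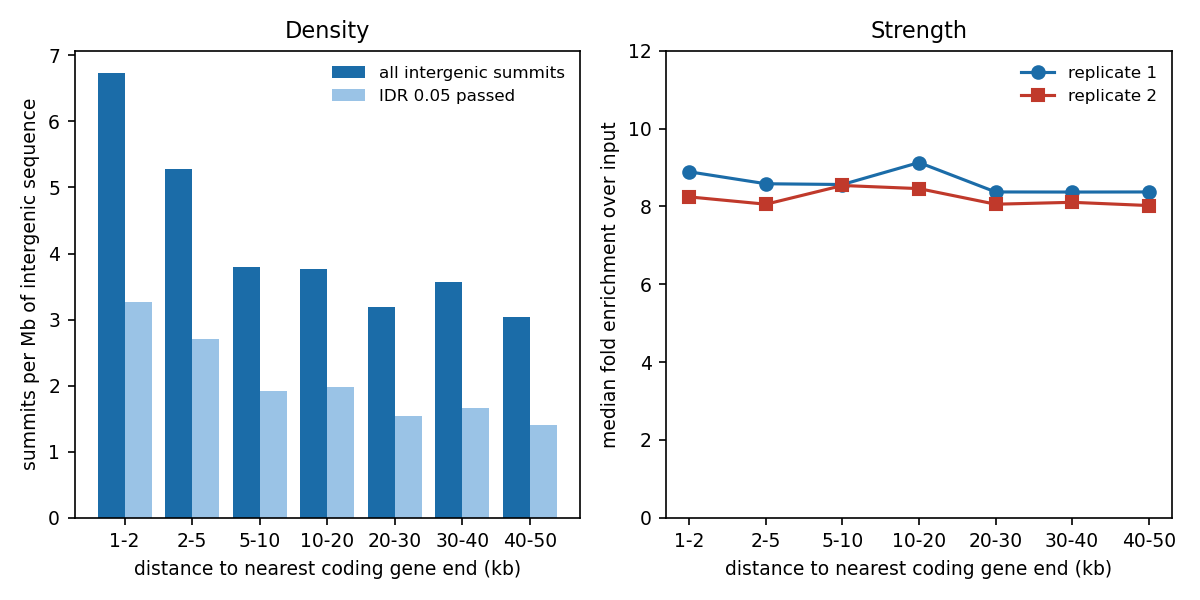
Intergenic summits by distance to the nearest protein-coding gene end in kb. The left panel gives summits per Mb of intergenic sequence at that distance, for all summits and for those that passed an IDR of 0.05, with 6.73 per Mb nearest to genes and 3.03 per Mb farthest from them for all summits. The right panel gives the median fold enrichment over input per replicate, which stays between 8.02 and 9.13.

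At the limits of the rule, the summits nearest to the 1 kb limit lay 1003 bp from SLC16A13 (folds of 6.51 and 3.81) and 1008 bp from ABI3BP (5.63 and 6.33). Just on the other side, 998 bp from a gene, were summits at AHCY (5.74 and 4.91) and ZNF416 (14.7 and 14.0). Near the 50 kb limit, summits at 49994 bp from PRSS23 (4.74 and 6.01) and 49915 bp from LINGO1 (8.75 and 8.86) were inside it. Summits at 50270 bp from SMURF2 (11.7 and 15.1) and 50396 bp from MVB12B (17.5 and 14.98) were outside it.

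Among the 25 intergenic summits with the highest mean fold, all had the highest IDR score of 1000, and their mean folds ran from 61.6 to 225. Replicates differed by at most 1.24 times at any of them and placed the summit within 53 bp of each other. The strongest lay on chromosome 5 from 173201093 to 173202790 (GRCh38), 30.1 kb from NKX2-5, a homeodomain factor of heart development, with folds of 227 in replicate 1 and 222 in replicate 2. The next lay on chromosome 1 from 92993186 to 92994727, 32.8 kb upstream of DIPK1A, a gene of a divergent protein kinase domain family, with 199 and 187. The closest gene of any kind was a pseudogene at 23.8 kb for the first and a long non-coding RNA gene at 6.86 kb for the second. The summit on chromosome 8 from 38874337 to 38875772, 21.98 kb from TACC1, a centrosome and microtubule protein, reached 143 and 147. That on chromosome 21 from 43306699 to 43308044, 21.0 kb from the uncharacterised gene LOC124905027, reached 140 and 137.

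The nearest genes of the strongest summits had varied roles, and a few follow with theirs. On chromosome 5 from 154464792 to 154465737, 4.27 kb beyond SAP30L, which encodes a histone deacetylase-associated corepressor, the folds were 138 and 132. NUP155, a nuclear pore subunit (15.3 kb away), had 106 and 102. RPRD1B, a protein that binds the tail of RNA polymerase II, had a summit 2.10 kb downstream at 81.8 and 82.3. ZBTB7A, a transcriptional repressor, had one 11.5 kb upstream at 72.7 in each replicate. The summit 31.2 kb from CTCFL, a germ cell relative of the insulator protein CTCF, reached 84.5 and 81.0. All of these were reproduced with little spread, the largest SD of the 5 being 4.25 at SAP30L.

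Further summits among the 25 follow with the role and distance of the nearest gene. ARAP3, which controls Arf GTPases, had a summit 9.77 kb upstream at 108 and 108, and ASAP1, another regulator of Arf GTPases, one at 39.7 kb with 92.4 and 80.3. SASH1, a signalling scaffold, had one 46.8 kb upstream at 78.6 and 81.6, and MAP7D3, a microtubule protein, one 4.80 kb upstream at 86.0 and 73.3. GRIP2, a scaffold of glutamate receptors, stood 14.6 kb from a summit of 123 and 107. TMEM67, a protein of the ciliary transition zone, had one at 5.06 kb with 103 and 89.3. PGM2, an enzyme of pentose and hexose phosphate metabolism, had one 13.9 kb upstream at 93.2 and 84.6, and TRIB3, a pseudokinase induced by cell stress, one 8.42 kb upstream at 89.3 and 72.0. The spread was widest at TRIB3 (mean 80.6 ± 12.3, SD, n = 2) and GRIP2 (115 ± 11.7). The remaining summits of the 25 were those nearest to CFDP1, CANT1, PHLDA1, CACNG2, LOC124904930, LONRF3, CRCT1 and RPL3, with mean folds of 61.6 to 85.4.

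**Figure D4:**
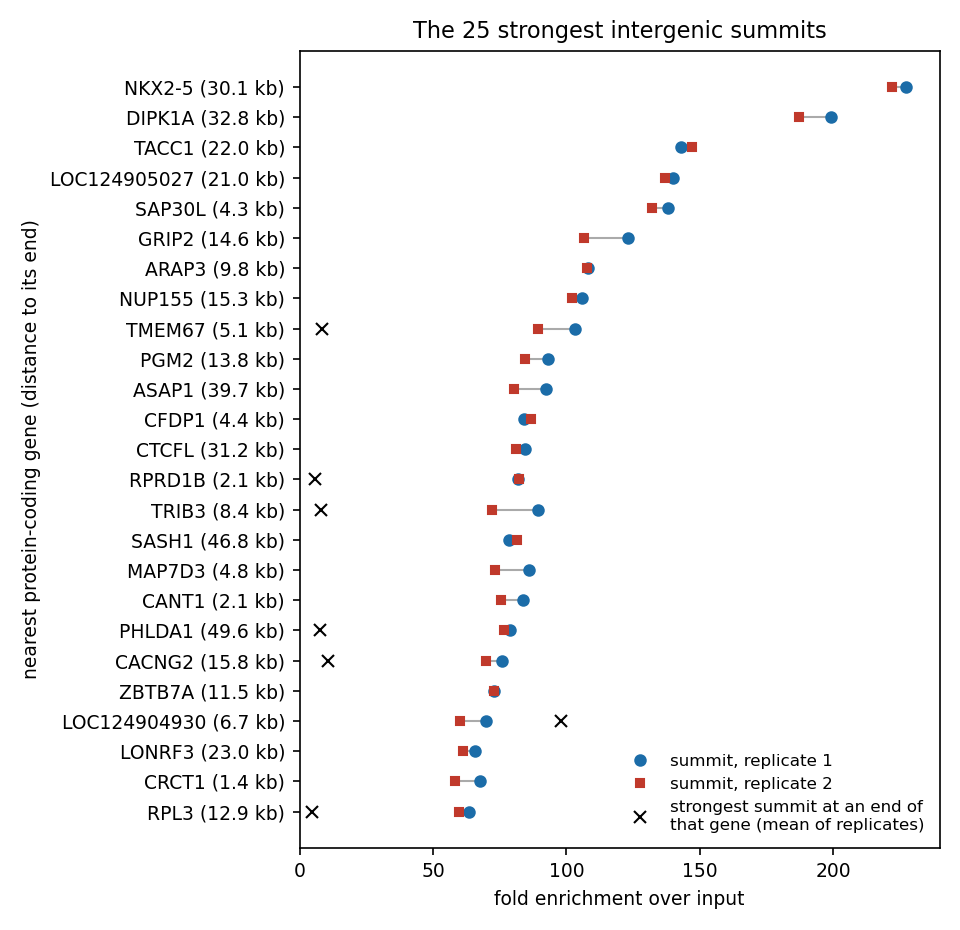
Fold enrichment over input (linear axis) in replicate 1 (dots) and replicate 2 (squares) for the 25 strongest intergenic summits, each named by the nearest protein-coding gene with its distance in kb. Crosses give the mean fold of the strongest matched summit within 1 kb of an end of that gene, where there is one. There are 7 crosses, and 6 of them lie between 4.80 and 10.6 while that of LOC124904930 lies at 97.9, above its intergenic summit.

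Genes nearest to an intergenic summit had a matched summit at their own ends slightly more often than other protein-coding genes, though most genes of either kind had none. The 1640 summits had 1396 different nearest protein-coding genes, which is 6.99% of the 19974 protein-coding genes on these chromosomes. Of the 1396, 166 (11.9%) also had a matched summit within 1 kb of either end, against 1608 of the 18578 other genes (8.66%) and 8.88% of all protein-coding genes. The share was 14.5% for genes 1 to 5 kb from their intergenic summit and 9.92% for those 20 to 50 kb away. Counting only end summits that passed an IDR of 0.05, 86 of the 1396 (6.16%) had one, against 4.51% of all protein-coding genes. In the 166 genes with both, the strongest intergenic summit had the higher fold in both replicates in 83 and the end summit in 60. The remaining genes were split between the replicates. The median of the mean folds was 10.2 for the intergenic and 8.58 for the end summits of these genes. Each value is that of the strongest summit of its kind assigned to the gene, which favours whichever kind had several.

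The relation of both summits differed from gene to gene. At RPRD1B, the intergenic summit had 81.8 and 82.3 and the end summit 6.77 and 4.85. At RPL3, a protein of the large ribosomal subunit, the intergenic summit 12.9 kb away had 63.6 and 59.6 and the end summit 5.40 and 4.19. At CS, which encodes citrate synthase of the citric acid cycle, the summit 2197 bp upstream had 33.9 and 31.0 and the end summit 7.61 and 12.9. The order was the opposite at MRPL48, a mitochondrial ribosome protein, with 30.3 and 26.0 at the intergenic summit 1.48 kb away and 35.0 and 33.1 at the end. At LGALS2, a galectin gene, the intergenic summit had 27.4 and 27.0 and the end summit 53.3 and 54.4. MRPL48 and LGALS2 were named after their values had been seen, as examples of this order.

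Nearest genes were set against 20 gene lists of 410 different genes, chosen with earlier results of these data known, so no count below is an independent test and none was tested. An intergenic summit had a list gene as its nearest gene for 66 of the 410, against 6.99% of all protein-coding genes. Genes beside long intergenic stretches have more sequence assigned to them, and the part of gene spacing in the list counts was not tested.

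Genes of oxidative phosphorylation and the citric acid cycle, the best known group of ERRα targets, had matched summits at their ends more often than they had an intergenic summit nearest to them. Of 52 genes, 7 (13.5%) were nearest to an intergenic summit, against 6.99% of all protein-coding genes, and 42 (80.8%) had a matched summit at an end, against 8.88% of all. Of the 7 intergenic summits 3 passed an IDR of 0.05, against 49.8% of all intergenic summits. The median of the mean folds of the 7 was 7.85, against 8.40 for all intergenic summits. The strongest was at CS, given above. ATP5PO, a stalk subunit of ATP synthase, had a summit 8.35 kb upstream with folds of 20.2 and 12.9, and SLC25A5, an ADP and ATP carrier, one 32.1 kb downstream with 16.0 and 16.1. The summit 37.0 kb from NDUFB4, a complex I subunit, reached 7.23 and 8.46 and did not pass. Of 24 known ERRα targets, 3 were nearest to an intergenic summit and 11 (45.8%) had a matched end summit. Those with an intergenic summit were WNT11, a secreted Wnt ligand (10.5 kb, 11.7 and 12.6), the glycolytic enolase ENO1 (21.6 kb, 11.4 and 8.46) and the angiogenic factor VEGFA (8.47 kb, 5.33 and 5.31), of which VEGFA did not pass an IDR of 0.05. Glycolysis had 2 of 23 genes, ENO1 and LDHA, and fatty acid and lipid metabolism 1 of 25, the fatty acid binding protein gene FABP5 (2.12 kb, 10.0 and 14.8).

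Of the 20 lists, the one named for feedback inhibitors of MAP kinase signalling had the highest share by nearest gene. Growth factors induce such inhibitors, which restrain their action, but whether each listed gene acts in this way was not examined. Of 14 genes, 7 (50.0%) were nearest to an intergenic summit, against 6.99% of all protein-coding genes, and 3 (21.4%) had a matched end summit, against 8.88%. Counted by any gene end within 50 kb of an intergenic summit, AP-1 factors had the highest share (7 of 13, 53.8%), above the MAP kinase list (7 of 14), against 14.0% of all protein-coding genes. The 7 genes had 13 intergenic summits, of which 11 passed an IDR of 0.05, against 49.8% of all intergenic summits, and each of the 7 had at least 1 that passed. PHLDA1, which encodes a pleckstrin homology-like protein, had the strongest, with 79.0 and 76.8 at 49.6 kb downstream, and 4 weaker ones between 4.55 and 47.3 kb with mean folds of 4.21 to 10.6. The highest of these includes a replicate 2 value of 11.7 that is a sum over 2 peaks, the stronger of which had 7.48. SPRED2, an inhibitor of Ras signalling, had a summit 4.91 kb upstream with 43.3 and 33.9. IER3, an immediate early gene, had one at 2.86 kb with 25.9 and 30.2. SPRY4, a Sprouty inhibitor of receptor tyrosine kinase signalling, had one 14.3 kb downstream with 20.6 and 21.0 and another at 18.1 kb with 11.9 and 10.3. The remaining 3 of the 7 genes, named after their values had been seen, were SPRY1, also a Sprouty gene (12.5 and 18.1 at 12.3 kb), and the MAP kinase phosphatase genes DUSP1 (14.9 and 14.9 at 1.38 kb, and 12.1 and 12.8 at 27.0 kb) and DUSP5 (9.05 and 10.6 at 45.4 kb).

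Transcription factor and signalling lists had smaller counts of nearest genes, which stand beside 6.99% of all protein-coding genes. Their counts of passed summits stand beside 49.8% of all intergenic summits and rest on few summits each. AP-1 factors had 4 of 13 genes (30.8%), with ATF3 (6.97 kb upstream, 11.4 and 15.3) and FOSL1 (2.83 kb, 8.66 and 7.45) above the IDR threshold and FOS and FOSL2 below it. The Wnt pathway had 6 of 21 (28.6%), led by the coreceptor LRP6 (6.15 kb, 29.3 and 28.6) and the feedback inhibitor AXIN2 (33.5 kb, 10.9 and 16.3). Of its 7 summits 4 passed. Hypoxia and angiogenesis had 4 of 14 (28.6%), with ANGPTL4, a secreted inhibitor of lipoprotein lipase (8.37 kb upstream, 33.9 and 37.9), and the oxygen-regulated factors HIF1A (32.9 kb upstream, 23.2 and 21.98) and EPAS1 (5.58 kb upstream, 18.4 and 14.9). Of its 5 summits 3 passed, while that of VEGFA (5.33 and 5.31) and another at HIF1A (6.73 and 7.73) did not. Cell cycle genes and MYC had 4 of 15 (26.7%), among them CCNE1, which encodes cyclin E1 (6.61 kb upstream, 27.0 and 16.6), and MYC (49.6 kb, 18.8 and 16.9, beside the non-coding gene PVT1). Of their 4 summits these 2 passed, while those of CCND1 (5.36 and 5.64) and E2F1 (4.67 and 4.22) did not. Growth factor receptors had 4 of 17 (23.5%), with ERBB3 (1.49 kb, 27.4 and 26.9) and MET (10.2 kb downstream, 21.7 and 23.0) as those that passed. Hippo pathway genes had 4 of 17, led by CCN1, a matricellular target of that pathway (23.5 kb, 32.5 and 30.5). Of their 4 summits 3 passed, while that of TEAD1 (7.99 and 6.45) did not. TGF-beta pathway genes had 3 of 19 (15.8%), TGFB2 (15.4 kb downstream, 25.5 and 22.2), SMAD6 and TGFBR3, and all 3 summits passed.

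Of 30 extracellular matrix and invasion genes, 7 (23.3%) were nearest to an intergenic summit, against 6.99% of all protein-coding genes. A matched end summit was found for 3 (10.0%), against 8.88% of all. The 7 nearest genes included the protease urokinase, PLAU (8.19 kb downstream, 20.2 and 23.4), the laminin chain LAMB3 (5.03 kb upstream, 15.6 and 18.5), the collagen COL6A1 (11.5 kb, 14.1 and 16.9) and the hyaluronan receptor CD44 (5.15 kb downstream, 17.6 and 11.5). Of their 9 summits 5 passed an IDR of 0.05, against 49.8% of all intergenic summits. Integrin and focal adhesion genes had 4 of 25 (16.0%), and 1 of their 4 summits passed an IDR of 0.05, against the same 49.8%. In the circadian list, 2 of 15 (13.3%) were found. BHLHE40, a clock repressor, had summits 36.3 kb downstream with 37.8 and 37.6 and 8.44 kb downstream with 22.7 and 26.5. The last of these values is a sum over 2 peaks of replicate 2, the stronger of which had 21.998. Nuclear receptors had 2 of 33 (6.06%), NR1D1 and ESRRB, below the 6.99% of all protein-coding genes. Counted by any gene end within 50 kb, they had 7 of 33 (21.2%), above the 14.0% of all protein-coding genes. Coregulators had 2 of 15 (13.3%), NF-kB and cytokine genes 2 of 20 (10.0%) and epithelial-mesenchymal transition genes 2 of 16 (12.5%). No summit of these 4 lists, which had 2 or 3 each, passed an IDR of 0.05, against 49.8% of all intergenic summits. No olfactory receptor gene, of 18 listed as genes taken to be silent in such cells, was nearest to an intergenic summit. The exact 95% interval runs up to 18.5% and so covers the 6.99% of all protein-coding genes. By any gene end within 50 kb of an intergenic summit, 2 of the 18 (11.1%) counted, against 14.0% of all protein-coding genes. Expression of these genes was not measured here. Of the 20 lists, 17 had a share above that of all protein-coding genes.

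**Figure D5:**
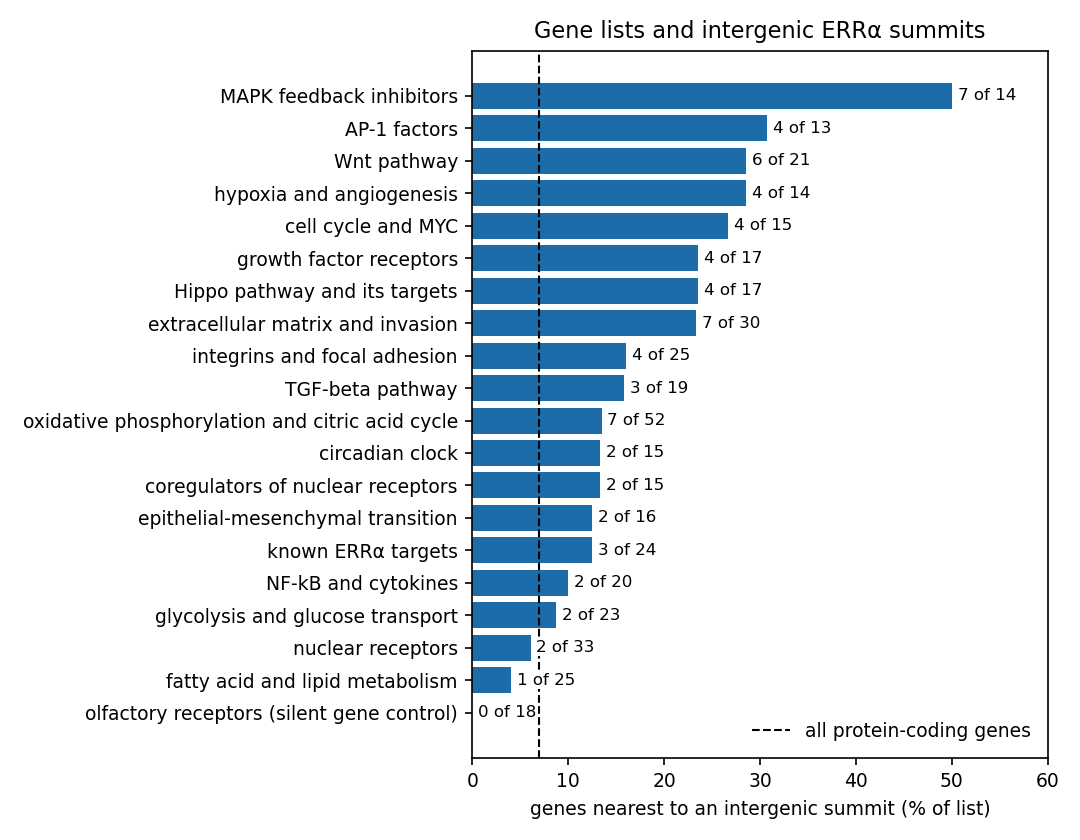
Share of each gene list that is the nearest protein-coding gene of an intergenic summit, in percent, with the number of genes beside each bar. The dashed line marks 6.99%, the share of all protein-coding genes. The list named for feedback inhibitors of MAP kinase signalling stands at 50.0% and the olfactory receptors at 0.

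Of the 1640 intergenic summits, 376 (22.9%) had another matched summit of any class within 10 kb, against 22.9% of summits at gene ends, 21.7% of all matched summits and 13.6% of those over 50 kb from genes. The median fold of the 376 was 8.75 in replicate 1 and 8.22 in replicate 2, and that of the 1264 without such a neighbour was 8.58 and 8.13. Chains of summits less than 10 kb apart held at most 4 intergenic summits. Of the chains that held 4, the 5 with the strongest summits are described, and these summits reached mean folds of 14.3 to 33.0. Near ZFP36L2 a further chain held 4, the strongest of which had a mean fold of 11.0. Near CLIC4, a chloride channel protein gene on chromosome 1, 4 summits spanned 15.4 kb, and the one 20.1 kb from the gene had 35.4 and 30.6 while the others had mean folds of 7.87 to 9.35. On chromosome 9 near LOC124900275 and NTMT1, a summit of 33.0 and 31.7 had neighbours with mean folds of 6.32 to 14.9. Near DNAJB12, a chaperone of the endoplasmic reticulum, the strongest of 4 had 25.1 and 22.7, and near SELPLG and TMEM119 it had 23.4 and 20.9. The others had mean folds of 7.04 to 12.9 near DNAJB12 and 4.26 to 6.69 near SELPLG and TMEM119. Near SMURF2, a ubiquitin ligase that limits TGF-beta signalling, the 4 summits of the chain had mean folds of 7.38 to 14.3.

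Replicates disagreed most, among intergenic summits that passed an IDR of 0.05, at the summit 3.14 kb downstream of the stress kinase gene MAPK14, with 21.7 in replicate 1 and 11.3 in replicate 2. The next were the summits nearest to TPRG1 (11.9 and 22.8), CLEC19A (17.7 and 9.23), PLSCR5 (9.57 and 16.8) and CHST3 (14.9 and 8.54). Replicate 1 was higher at 3 of these 5 and replicate 2 at the others.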

How the data were processed

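Peak lists for 2 ERRα ChIP replicates and the list of peaks matched between them were analysed. The submitters' processing notes name the build hg38 and, among tools, MACS2 2.2.6, deepTools, Bowtie2 2.3.5, SAMtools, Trim Galore 0.6.5 and Picard. The sources used here give no settings. The deposited lists give for each peak the authors' fold enrichment (a ratio of ChIP signal to local input), its score, and −log10 p and −log10 q, with a smallest −log10 q of 1.35 in replicate 1 and 1.37 in replicate 2. The deposited score of the matched list is a scaled IDR between 154 and 1000, so that list was not filtered on IDR. Where several peaks of a replicate were merged in matching, the authors' fold is their sum, which holds for 1 replicate's value of 8 intergenic summits. Another 305 matched peaks on other chromosomes and contigs were left out.

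Genes came from RefSeq GRCh38.p14, the build of the files. The distance of a summit was taken to the nearest gene end, with Python 3.11.15, pandas 2.3.3 and scipy 1.17.1, and the classification was tested on simulated positions. Members and gene lists were chosen with earlier results of these data known. The text names the 25 strongest summits, up to 4 genes a list, all known targets, the summits at the limits and the 5 largest replicate differences. It also names the 5 chains with the most intergenic summits, with ties settled by the highest fold. The values of 1 gene that the rule for lists names are not reported here. With 2 libraries, results are descriptions, and p-values were not computed. The labels do not say more of how the cultures were separated, so the spread between replicates may be technical. The planned share of summits with the ERR response element was not computed, since no genome sequence was used here. The share upstream of genes was also left out, because strand was known for 75.5% of the nearest genes, under the 80% needed. Sides are given for single genes where strand was known.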

Additional observations from a re-analysis of the deposited data

How the results depend on the processing

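No paired analysis was possible because no result comes from a test between groups, and the inputs carry no values of their own in the lists. The number of intergenic summits stayed within 1.5 times of 1640 with gene distances of 500 bp or 2 kb, end limits of 25 or 100 kb, peak midpoints, or the list of either replicate (1215 to 2262). It was 817 at an IDR of 0.05 and 628 at 0.01, where the share that passed was 38.3%. The median of the mean folds (8.40) was 8.17 without replicate 1 and 8.65 without replicate 2. Selection of stronger peaks raised it to 12.9 at an IDR of 0.05, 15.05 at 0.01 and 9.21 with a −log10 q of at least 5 in both replicates. The share with a neighbouring summit was 11.9% within 5 kb, 42.4% within 25 kb, and 12.9% with both summits past an IDR of 0.05. By construction all intergenic summits overlapped a peak of each replicate. With 50% overlap of both peaks it was 98.3% in replicate 1 and 98.0% in replicate 2, and with the matched summit within 100 bp of that of the replicate 95.7% in each. Listed genes numbered 100 when every gene with an end within 50 kb counted and 38 at an IDR of 0.05. The other alternatives left their values within the interval or replicate SD. Those of the response element and of the upstream side were not run.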

Other observations

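Matched peaks of all classes were unevenly spread over chromosomes, and so were the intergenic summits among them. These values were looked at after the others. Chromosome X had 89 matched peaks for 848 protein-coding genes and chromosome 20 had 490 for 537. Intergenic summits made up 24.7% of the matched peaks on X and 18.8% on chromosome 20, against 16.4% over all chromosomes. Chromosome 20 had 17.1 intergenic summits per 100 protein-coding genes (92 summits), chromosome 22 had 12.4 and chromosome 10 had 12.4, while chromosome X had 2.59 (22 summits) and chromosome 4 had 4.55. Of the 22 on chromosome X, 86.4% passed an IDR of 0.05, against 49.8% of all intergenic summits, with a median mean fold of 10.9. MDA-MB-231 has an altered karyotype, and copy number was not used here. Its part in these counts was not tested.

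The nearest gene of any kind was protein-coding for 921 of the 1640, a long non-coding RNA gene for 457 (27.9%) and a pseudogene for 213 (13.0%). The median of the mean folds was 8.45, 8.51 and 7.57 in these 3 groups. Most nearest genes (1203 of 1396) had 1 intergenic summit, and 9 genes, chosen after their values had been seen, had 4 or more. SMURF2 had 6, and MED27, a subunit of the Mediator complex, CLIC4 and PHLDA1 had 5 each. At SMURF2 3 of the 6 passed an IDR of 0.05 and at PHLDA1 3 of the 5, against 49.8% of all intergenic summits. At MED27 2 of the 5 passed, and at CLIC4 1 of the 5. ZFP36L2, an RNA-binding protein that promotes mRNA decay, had 4 between 28.3 and 43.0 kb, with mean folds of 7.06 to 11.0. Of these, 1 passed. UBE2V1, a ubiquitin-conjugating enzyme variant, had 4 with mean folds of 8.05 to 11.0, of which 3 passed an IDR of 0.05, and the highest of these values includes a sum over 2 peaks in replicate 1.

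Of the 1640, 723 (44.1%) had a single protein-coding gene with an end within 50 kb, and 129 had 5 or more, up to 16. For the 917 with more than 1, the nearest gene is one of several landmarks.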
